A study of Mus musculus with 4 samples.

Results

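Open chromatin was described at the loci of 3 zinc finger genes, Mecom, Prdm16 and Prdm1, in lung endothelial cells of Dnmt3a knockout (KO) and wild-type (WT) mice. All peaks of the 4 deposited ATAC-seq peak lists were joined into merged regions wherever they overlapped by at least 1 bp. A region belonged to a gene when it overlapped the gene's span in the mm10 assembly or the 50 kb on either side. That gave 122 of the 113056 merged regions, of which 61 lay at Mecom, 41 at Prdm16 and 20 at Prdm1. The genes were chosen by the presence or absence of peaks in the KO and WT lists, so which regions followed genotype at them is given as a description and without a test.

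ATAC-seq uses a transposase that inserts sequencing adapters where chromatin is open, and stretches with many insertions are called as peaks. The study sorted endothelial cells from mouse lung by flow cytometry and made 2 libraries from Dnmt3a KO mice and 2 from WT mice. The labels give no age, sex, strain or treatment, leave out which cells lost Dnmt3a or when, and do not name the mouse behind each replicate. The lists give position and width only, so neither read depth nor peak height is known, and a region missing from a list is not shown to be closed.

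DNMT3A adds methyl groups to cytosines of CpG dinucleotides that were not methylated before, and its loss is studied for changes in which regulatory elements a cell uses. The 3 genes encode transcription factors with many zinc fingers, and the family takes its name from the PR domain, a relative of the SET domain of histone methyltransferases. Mecom is known for maintaining haematopoietic stem cells and is also transcribed in endothelium. It has a long form that carries the PR domain (MDS1-EVI1) and a short form without it (EVI1), which starts far inside the gene. Prdm16 is known for specifying brown fat and is used as a marker of arterial endothelium. Prdm1 encodes Blimp-1, a repressor that drives B cells to become plasma cells.

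The KO lists held 85091 and 100879 peaks and the WT lists 101442 and 97627, so KO replicate 1 was the shortest list. The median peak width was 467 and 407 bp in the KO lists and 431 and 443 bp in the WT lists, and no list held a peak narrower than 201 bp. Of 8 endothelial marker genes with a promoter window, 8 had a peak there in each of the 4 lists, as did 5 of 5 arterial ones. The T and NK cell genes Cd3e, Cd3d, Cd3g, Nkg7 and Gzmb, the B cell genes Cd79a and Pax5, the plasma cell gene Jchain, the leukocyte gene Ptprc and the epithelial gene Epcam had 0 in every list. In contrast, the plasma cell gene Sdc1 had a peak in every list. The T cell gene Cd8a had one in all but KO replicate 1, and the myeloid gene Lyz2 in WT replicate 1 only. Over the whole of each list, peaks lay at the promoters of 1 and 1 of 4 B and plasma cell genes in the KO lists, against 1 and 1 in the WT lists, and at 0 and 1 of 6 T and NK cell genes in the KO lists, against 1 and 1 in the WT lists. Of 3 myeloid genes 0 and 0 had one in the KO lists, against 1 and 0 in the WT lists, of 4 fibroblast and mural genes 2 and 1 in the KO lists, against 2 and 1 in the WT lists, of 3 stem cell genes 2 in each list, and of 3 epithelial genes 0 in each. At Dnmt3a itself, 15 and 19 of 19 regions in the gene span were called in the KO lists, against 18 and 17 in the WT lists, which checks no deletion, since a list of peaks does not show missing exons. Peaks at 4 single-copy Y genes were found for 4 and 0 of them in the KO lists, against 3 and 4 in the WT lists. KO replicate 2 thus stood apart from the other 3 libraries at the Y chromosome, and the part of this in the results below was not tested.

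The promoters came first, because 3 of the 4 annotated promoter windows of these genes are rich in CpG, the substrate of DNMT3A. Each window runs from 250 bases before to 50 bases after a transcription start and is taken from RefSeq on GRCm38.p6, the mm10 assembly. All 3 genes lie on the minus strand. The windows are printed 5′ to 3′ with every CpG in capitals, so that the CpG content can be read against the peaks given after them.
Mecom long form, chr3:30509710-30510009: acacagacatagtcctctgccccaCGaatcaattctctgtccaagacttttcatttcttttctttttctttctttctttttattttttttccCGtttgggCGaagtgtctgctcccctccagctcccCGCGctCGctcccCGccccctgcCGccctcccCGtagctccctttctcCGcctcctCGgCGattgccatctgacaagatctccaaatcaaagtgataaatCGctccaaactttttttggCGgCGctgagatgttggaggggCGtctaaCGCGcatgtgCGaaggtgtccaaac
Mecom short form, chr3:30013155-30013454: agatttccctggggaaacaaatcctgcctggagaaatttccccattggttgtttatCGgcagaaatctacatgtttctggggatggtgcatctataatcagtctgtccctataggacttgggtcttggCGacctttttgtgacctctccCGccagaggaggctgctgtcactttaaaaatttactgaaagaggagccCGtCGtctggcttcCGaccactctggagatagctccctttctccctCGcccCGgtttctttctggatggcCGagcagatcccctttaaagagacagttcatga
Prdm16, chr4:154636824-154637123: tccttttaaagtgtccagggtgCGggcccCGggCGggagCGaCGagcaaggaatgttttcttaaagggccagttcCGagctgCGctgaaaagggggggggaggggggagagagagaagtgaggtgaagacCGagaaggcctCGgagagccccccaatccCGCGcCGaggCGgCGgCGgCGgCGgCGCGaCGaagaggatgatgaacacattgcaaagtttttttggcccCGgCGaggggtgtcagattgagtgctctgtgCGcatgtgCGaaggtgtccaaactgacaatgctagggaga
Prdm1, chr10:44458699-44458998: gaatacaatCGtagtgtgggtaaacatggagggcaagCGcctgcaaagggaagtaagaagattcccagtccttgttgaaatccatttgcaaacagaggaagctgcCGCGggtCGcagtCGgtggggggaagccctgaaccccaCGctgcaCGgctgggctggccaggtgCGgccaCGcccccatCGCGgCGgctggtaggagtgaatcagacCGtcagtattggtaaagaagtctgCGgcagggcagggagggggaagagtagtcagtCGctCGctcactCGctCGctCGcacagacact
The long form of Mecom had 19 CpG, Prdm16 had 24 and Prdm1 had 20, against 9 in the short form of Mecom and a median of 7 over 32851 RefSeq windows.

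The promoter of Prdm1 lay under a peak over its full 300 bases in all 4 lists. The short-form promoter of Mecom lay under a peak for 262 and 246 of its 300 bases in the KO lists, against 233 and 259 in the WT lists. The long-form promoter of Mecom and the promoter of Prdm16 had 0 bases under a peak in any list. Their nearest merged regions lay 225 bp and 340 bp downstream of the windows, inside the genes, and both of those regions were called in all 4 lists. Of 11378 windows with at least 15 CpG, 10194 (89.6%) had a peak in all 4 lists, and 742 (6.52%) had a peak in none. Of the same windows, 159 (1.4%) had a peak in none and a merged region within 500 bp, as these 2 windows had. The CpG minimum of 15 and this class were chosen after the windows had been seen. The share of 1.4% is therefore no test. No promoter window of the 3 genes was called in 1 genotype and not in the other. Of all 32851 windows, 51 were called in both KO lists and no WT list. Another 134 were called in both WT lists and no KO list. Such windows are rare, so finding none among these 4 says little about these genes.

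The 2 CpG-rich windows without a peak also shared a sequence. A run of 24 bases, in capitals in the 2 stretches printed next, was identical and on the same strand in the Mecom long-form window and in the Prdm16 window.
Mecom long form: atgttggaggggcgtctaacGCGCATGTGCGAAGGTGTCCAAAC
Prdm16: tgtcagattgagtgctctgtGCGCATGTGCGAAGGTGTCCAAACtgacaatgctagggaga
At Mecom the run covered bases 27 to 50 after the annotated start, at chr3:30509710-30509733, and ended at the edge of the window, so it may go on beyond it. At Prdm16 it covered bases 10 to 33 after the start, at chr4:154636841-154636864. Among the 32851 windows no other held it. Of the 20 bases before the run 4 were identical between the genes, as were 18 of the 50 and 33 of the 100 bases before it. The longest run shared by the long-form and short-form windows of Mecom was 15 bases, and the other 4 pairs of windows shared 7 to 10 bases. The runs were picked after the sequences had been seen and are a description of the windows. Motifs were searched on both strands and as exact letters only. The form AGATAA of the GATA factor motif was in 0 of the 4 windows, against 11.2% of all windows. Other GATA forms were not counted, such as TGATAA in the long-form and AGATAG in the short-form window of Mecom. The ETS factor motif AGGAAG stood once in Prdm1, against 35.4% of all. The SOX factor motif ACAATG stood once in Prdm16, against 12.6% of all windows, and the E-box CACGTG and the TATA box TATAAA were in 0 of the 4, against 7.15% and 13.6% of all.

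Mecom (gene 14013) spans chr3:29951296-30509759, and the most regions of the 3 loci lay there, 56 of its 61 inside the gene span, 4 upstream of the start and 1 beyond the 3′ end. Per length it had 9.26 regions per 100 kb, against a median of 6.72 over the windows of 21887 protein-coding genes. The longest stretch without a region was 72.6 kb, from 29903904 to 29976554, over the 3′ end. All 4 lists called 39 of the 61 regions (63.9%), against 66.7% of all merged regions. The widest lay just inside the long-form start, at chr3:30507417-30509485. Its summed peak width was 1560 and 1801 bp in the KO lists and 1670 and 1829 bp in the WT lists, which overlap. The next was 263.29 kb downstream of the start, at chr3:30245902-30247041, with 986 and 940 bp in the KO lists and 905 and 912 bp in the WT lists, both KO values above both WT values. The third, at chr3:30306098-30307150, had 625 and 1053 bp in the KO lists and 924 and 954 bp in the WT lists, and there the KO libraries were the narrowest and the widest of the 4.

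**Figure D1:**
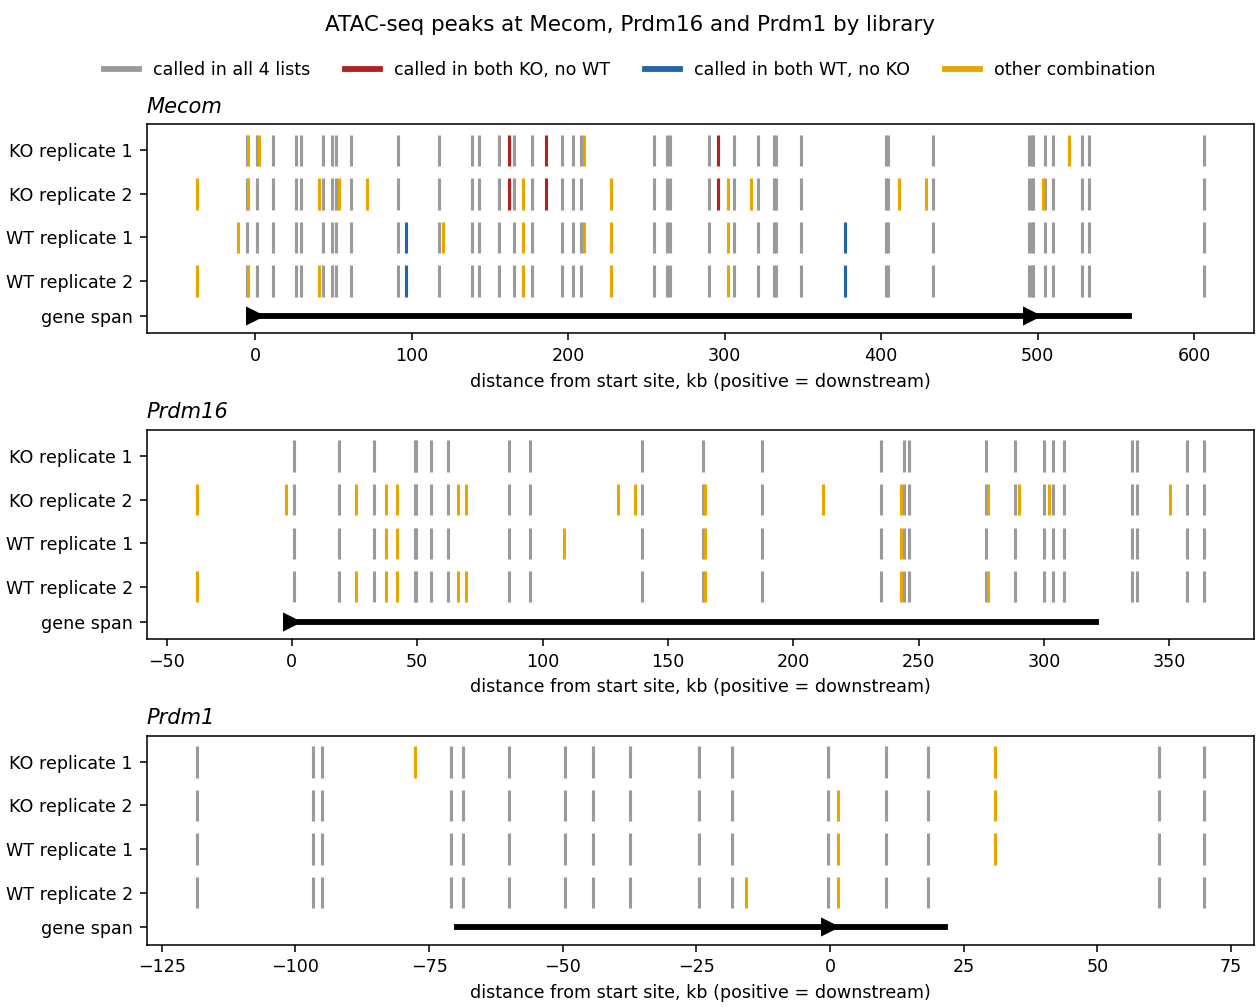
Peaks at the 3 loci, drawn by distance in kb from the annotated start site in the direction of transcription. Each tick is a merged region in 1 library, with KO libraries above WT libraries, and its colour gives the lists that called it, and the arrowheads on the black gene span are annotated starts. Mecom holds 3 regions called in both KO lists and no WT list (red). It also holds 2 called in both WT lists and no KO list (blue), and Prdm16 and Prdm1 hold 0 of either. At Prdm16 each region in another combination (orange) lacks KO replicate 1, the shortest list, which missed 29030 of all 113056 merged regions.

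Mecom was the only one of the 3 genes with regions that followed genotype. It also had the most regions, 61, against 41 at Prdm16 and 20 at Prdm1, and the difference between the genes was not tested. Of its 61 regions, 3 were called in both KO lists and in no WT list, the KO pattern, which 1.12% of all merged regions had, and 2 were called in both WT lists and in no KO list, the WT pattern, which 3.04% of all had. Of 2670 protein-coding genes with at least 20 regions, 77 (2.88%) held 3 or more regions of the KO pattern and 857 (32.1%) held at least 1. All 5 regions lay inside the gene span and overlapped no other annotated gene.

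The 3 regions of the KO pattern lay between the long-form and the short-form start. That stretch of 496.6 kb makes up most of the gene span of 558464 bp, so lying there sets them little apart. The first, at chr3:30213800-30214168 and 295.77 kb downstream of the long-form start, was 291 and 369 bp wide in the KO lists and absent from the WT lists, with the nearest WT peak 4996 bp away. The second, at chr3:30323659-30323938, was 251 and 201 bp wide in the KO lists and absent from the WT lists, with the nearest WT peak 8470 bp away. The third, at chr3:30347396-30347787, was 233 and 392 bp wide in the KO lists and absent from the WT lists, with the nearest WT peak 2754 bp away. All 6 peaks were narrower than the median of their own list, at percentiles 18.8, 12.1 and 9.3 of KO replicate 1 and 40.3, 1.6 and 45.9 of KO replicate 2.

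The 2 regions of the WT pattern lay in the same stretch of the gene. The first, at chr3:30132421-30132718, was absent from the KO lists and 201 and 298 bp wide in the WT lists, with the nearest KO peak 25558 bp away. The second, at chr3:30413044-30413332, was absent from the KO lists and 244 and 268 bp wide in the WT lists, with the nearest KO peak 5109 bp away. They stood at or below percentile 20.0 of the widths of their lists. Genome-wide, the median percentile of KO-pattern peaks was 13.8 in KO replicate 1 and 21.6 in KO replicate 2, and WT-pattern peaks had 14.1 and 10.9 in their own lists.

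**Figure D2:**
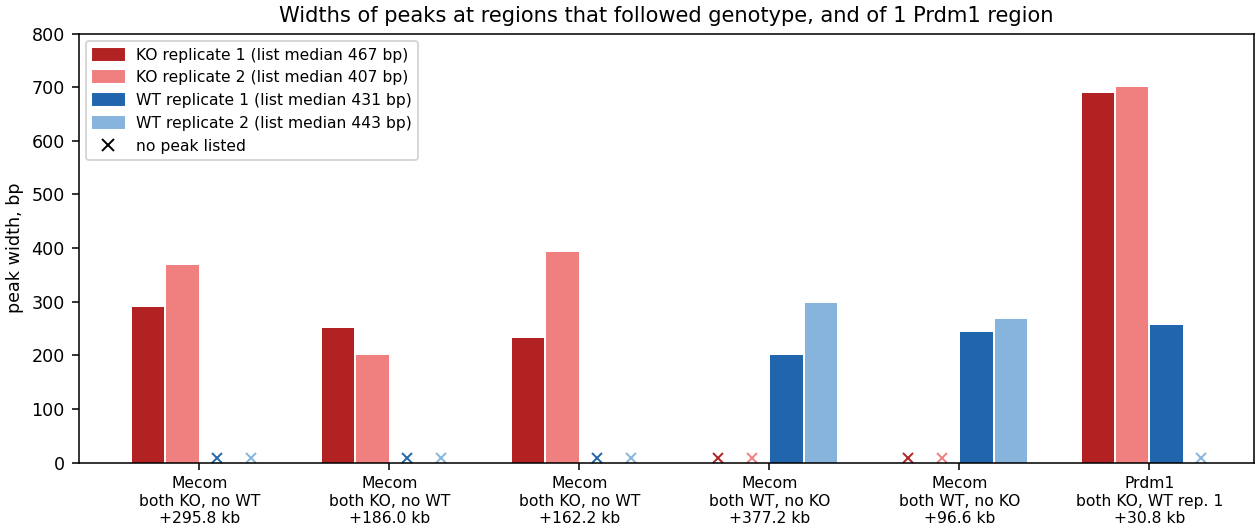
Peak width in bp at the 5 Mecom regions that followed genotype and at 1 Prdm1 region, with 1 bar per library, KO bars left of WT bars, and a cross where the list holds no peak. The Mecom peaks are 201 to 392 bp wide, below the median of their lists, and the Prdm1 region is 689 and 701 bp wide in the KO lists and 257 bp in WT replicate 1.

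The count at Mecom changed when lists were shortened or narrow peaks removed. With every list cut to the length of the shortest by width, 2 of the 3 KO-pattern regions and 0 of the 2 WT-pattern regions kept their pattern. With only peaks at or over their list's median width, 0 of the 3 and 0 of the 2 kept it. That outcome was fixed by the width percentiles given above and adds no support. Over all merged regions, both peaks reached the median at 45 of 1267 KO-pattern regions (3.55%) and 29 of 3434 WT-pattern regions (0.844%). Leaving out a library asks for 1 list fewer, so more regions of the genome meet each pattern. Without KO replicate 1, 9 of the 61 Mecom regions had the KO pattern, where 5.68% of all merged regions did, and 2 the WT pattern, where 4.86% did. Without KO replicate 2, 5 had the KO pattern, where 3.04% of all did, and 5 the WT pattern, where 10.6% did. Without WT replicate 1, 3 had the KO pattern, where 2.05% of all did, and 2 the WT pattern, where 5.59% did. Without WT replicate 2, 4 had the KO pattern, where 1.84% of all did, and 4 the WT pattern, where 7.38% did.

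The other 17 Mecom regions were called in mixed combinations. Of these, 10 were called in 1 list only, of which the KO libraries had 2 and 6 and the WT libraries 2 and 0. Another 4 were called in 3 lists and 3 in 1 KO and 1 WT list. The widest of them, at chr3:30546674-30547420 and 37.29 kb upstream of the long-form start, was 489 bp wide in KO replicate 2, absent from KO replicate 1, 747 bp wide in WT replicate 2 and absent from WT replicate 1. Of the 61 regions, 15 and 7 were missing from the KO lists and 14 and 14 from the WT lists. In percent this was 24.6% and 11.5% for the KO lists and 23.0% and 23.0% for the WT lists. Over all merged regions it was 25.7% and 14.8% for the KO lists and 12.9% and 15.6% for the WT lists. Regions in 1 list only made up 16.4% at Mecom, against 13.4% of all merged regions. By library this was 3.28% and 9.84% for KO and 3.28% and 0.0% for WT. Over all merged regions it was 1.92% and 4.56% for KO and 4.34% and 2.55% for WT.

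Prdm16 (gene 70673) spans chr4:154316122-154637360, and its 41 regions, 9.73 per 100 kb, split by library and not by genotype. Inside the gene span lay 34 of them, 2 upstream and 5 beyond the 3′ end. All 4 lists called 24 (58.5%), and 0 had the KO pattern and 0 the WT pattern. Of the 41 regions, 17 and 1 were missing from the KO lists and 12 and 8 from the WT lists. In percent this was 41.5% and 2.44% for the KO lists and 29.3% and 19.5% for the WT lists, against 25.7% and 14.8% for the KO lists and 12.9% and 15.6% for the WT lists over all merged regions. The 2 KO libraries were thus the highest and the lowest of the 4, with both WT libraries between them. Of the 2670 genes with at least 20 regions, 112 (4.19%) missed at least that share in KO replicate 1, where the median gene missed 22.7%.

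None of the 17 Prdm16 regions that were not in all 4 lists was called in KO replicate 1. Of all 113056 merged regions, 75395 were in all 4 lists and 29030 were missing from KO replicate 1, the shortest list. Of the 17, 4 were called in the other 3 lists (9.76% of the 41, against 7.59% of all merged regions). Another 5 were called in KO replicate 2 and WT replicate 2, a combination that 1648 of all merged regions had. KO replicate 2 alone called 7 (17.1%, against 4.56% of all), and WT replicate 1 alone called 1 (2.44%, against 4.34% of all). The widest of the 4, at chr4:154393802-154394193, was absent from KO replicate 1, 390 bp wide in KO replicate 2, and 360 and 372 bp wide in the WT lists. Of the 5, the region at chr4:154359096-154359528 was absent from KO replicate 1, 348 bp wide in KO replicate 2, absent from WT replicate 1 and 419 bp wide in WT replicate 2. With KO replicate 1 left out, 7 of the 41 Prdm16 regions had the KO pattern, where 5.68% of all merged regions did. The WT pattern then had 0, where 4.86% of all did. With KO replicate 2 left out, 4 had the WT pattern, where 10.6% of all did, and 0 the KO pattern, where 3.04% did. The direction at this gene thus turned with the KO library used, and so did that over all merged regions. Without WT replicate 2, 1 region had the WT pattern, where 7.38% of all did.

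**Figure D3:**
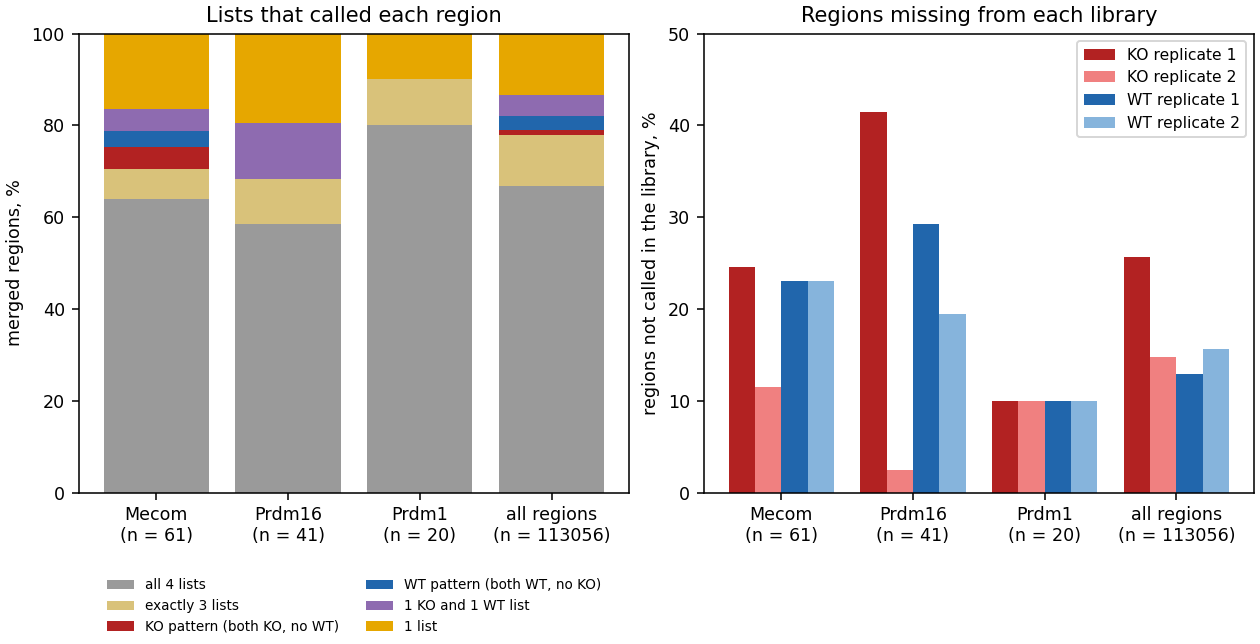
Left, the percent of merged regions at each gene and in the whole genome by the lists that called them, and right, the percent of regions not called in each library, KO bars left of WT bars. At Prdm16 the KO lists miss 41.5% and 2.44% of the regions and the WT lists 29.3% and 19.5%, and at Prdm1 each list misses 10.0%.

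The regions of Prdm16 called in all 4 lists told KO replicate 1 apart in width too. KO replicate 1 had the narrowest peaks of the 4 at 18 of 24 regions (75.0%), against 13 of 39 (33.3%) at Mecom, 7 of 16 (43.8%) at Prdm1 and 33.8% of all regions called in all 4 lists. At those 24 regions the median width percentile was 36.8 and 67.8 in the KO libraries, against 63.3 and 59.4 in the WT libraries. The widest region, at chr4:154635340-154636484, lay just downstream of the start and overlapped the promoter window of the long non-coding RNA 5930403L14Rik. Its width was 918 and 993 bp in the KO lists and 1039 and 1129 bp in the WT lists, so both KO values were below both WT values. The next, at chr4:154348022-154348885, was 810 and 861 bp wide in the KO lists and 864 and 856 bp in the WT lists, which overlap. The third lay over the promoter of the long non-coding RNA Gm13133, at chr4:154549674-154550652, with 774 and 860 bp in the KO lists and 856 and 849 bp in the WT lists.

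Prdm1 (gene 12142) spans chr10:44437174-44528558, and its 20 regions, 10.5 per 100 kb, were the most evenly called of the 3 loci. All 4 lists called 16 (80.0%), each list missed 2 (10.0%), and 0 had the KO or the WT pattern. Over all merged regions, the KO lists missed 25.7% and 14.8% and the WT lists 12.9% and 15.6%. Of 2670 protein-coding genes with at least 20 regions, 980 (36.7%) held 0 regions of both patterns. The annotated start of Prdm1 in the promoter table lies 69.81 kb inside the gene span. Inside the span lay 12 regions, 5 lay upstream of it and 3 beyond the 3′ end. The widest region, at chr10:44458406-44460052, covered that start and had a summed peak width of 1647 and 1271 bp in the KO lists and 1357 and 1553 bp in the WT lists. The KO libraries were the widest and the narrowest there. The second widest by mean, at chr10:44476520-44477592 and 18.31 kb upstream of the start, had 582 and 737 bp in the KO lists and 1018 and 931 bp in the WT lists. The third, at chr10:44447916-44448715, had 773 and 750 bp in the KO lists and 695 and 734 bp in the WT lists. At the high-coordinate end of the span, the region at chr10:44527123-44527567 was 335 and 320 bp wide in the KO lists and 389 and 369 bp in the WT lists. Just outside that end, the region at chr10:44529219-44530014 was 786 and 553 bp wide in the KO lists and 735 and 791 bp in the WT lists.

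Just 1 Prdm1 region was wide in both KO libraries and narrow or absent in the WT libraries. It lay at chr10:44427547-44428331, 30.81 kb downstream of the Prdm1 start and beyond the 3′ end, over the start of the long non-coding RNA Gm35028. Its width was 689 and 701 bp in the KO lists, at percentiles 74.2 and 85.0 of those lists. In the WT lists it was 257 bp wide in WT replicate 1, at percentile 12.7, and absent from WT replicate 2. It was singled out after its values had been seen. The promoter window of Gm35028, which has 9 CpG, is printed next because this region overlaps it.
Gm35028, chr10:44427939-44428238, minus strand: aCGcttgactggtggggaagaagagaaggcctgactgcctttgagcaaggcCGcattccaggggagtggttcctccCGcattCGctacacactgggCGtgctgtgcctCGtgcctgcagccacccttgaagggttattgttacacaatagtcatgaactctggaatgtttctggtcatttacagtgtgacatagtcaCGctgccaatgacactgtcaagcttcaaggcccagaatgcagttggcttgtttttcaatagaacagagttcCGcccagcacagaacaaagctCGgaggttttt
Of its 300 bases, 297 and 300 were under a peak in the KO lists, against 257 and 0 in the WT lists. Of 1053 merged regions called in both KO lists and, of the WT lists, in WT replicate 1 only, 6 (0.57%) had KO peaks at or above these percentiles in both lists. The percentiles are those of the region itself, which was picked for its wide KO peaks. A small share was therefore set by that choice and is no test. Without WT replicate 1, the only WT list that called it, the region had the KO pattern by definition. With every list cut by width to the length of the shortest it had it too, because the narrow WT peak was cut. Both outcomes follow from the widths given above and add no support.

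Where all 4 lists called a region, peak width could be compared between the genotypes with the fit run on 75395 such regions of the genome. Of the 79 regions at the 3 genes, 0 reached an adjusted p under 0.05 with limma on quantile-normalised log2 width, and 0.0% of all 75395 did. The smallest adjusted p was 0.769 at the 3 genes and 0.537 over all regions. At an unadjusted p under 0.05, 1 of 79 was wider in KO, where 2.85% of all regions were, and 1 was narrower in KO, where 3.18% were. The median log2 width ratio, KO over WT, was 0.05 at Mecom (24 regions above 0 and 15 below), −0.01 at Prdm16 (12 and 12) and −0.11 at Prdm1 (6 and 10), against 0.01 over all regions. The middle 95% of all regions ran from −0.48 to 0.43.

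The smallest p at Mecom belonged to chr3:30371279-30371856, with 576 and 544 bp in the KO lists and 443 and 496 bp in the WT lists, a log2 ratio of 0.32 ± 0.10 (SE, 2 libraries each; limma adjusted p = 0.769). The KO values lay above the WT values. At chr3:30418441-30419004 the width was 564 and 426 bp in the KO lists and 383 and 422 bp in the WT lists, and at chr3:29999093-30000172 it was 823 and 838 bp in the KO lists and 757 and 649 bp in the WT lists, with log2 ratios of 0.36 ± 0.15 and 0.27 ± 0.13 (SE). With 1 library left out, the first of these ran from 0.19 (without KO replicate 1) to 0.53 (without KO replicate 2), and the second from 0.15 (without WT replicate 2) to 0.40 (without WT replicate 1). At Prdm1 the smallest p was at chr10:44476520-44477592, the region 18.31 kb upstream given above, with a log2 ratio of −0.54 ± 0.18 (SE, 2 libraries each; limma adjusted p = 0.801). Leaving out KO replicate 1 gave −0.31 there and leaving out KO replicate 2 gave −0.76. The next at Prdm1 were chr10:44508083-44508498, with 313 and 331 bp in the KO lists and 412 and 392 bp in the WT lists, and chr10:44495930-44496411, with 402 and 433 bp in the KO lists and 338 and 417 bp in the WT lists. The log2 ratio of the second was 0.26, and it was 0.09 without WT replicate 1 and 0.43 without WT replicate 2.

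At Prdm16 the 3 regions with the smallest p were narrower in KO, and none passed. At chr4:154392657-154393086 the width was 302 and 206 bp in the KO lists and 424 and 415 bp in the WT lists, a log2 ratio of −0.64 ± 0.23 (SE, 2 libraries each; limma adjusted p = 0.831), and it was −0.95 without KO replicate 1 and −0.33 without KO replicate 2. At chr4:154272875-154273416, over the neighbouring gene Megf6, the width was 322 and 393 bp in the KO lists and 443 and 488 bp in the WT lists. At chr4:154279574-154280072, over the neighbouring gene Arhgef16, it was 201 and 240 bp in the KO lists and 280 and 499 bp in the WT lists. The log2 ratio over Megf6 was −0.28, and −0.16 without KO replicate 1. Over Arhgef16 it was −0.64, with −1.13 without WT replicate 1 and −0.18 without WT replicate 2. In raw bp, both KO widths were below both WT widths at 4 of 39 Mecom regions, 7 of 24 Prdm16 regions and 7 of 16 Prdm1 regions, where 27.1% of all regions were. Both KO widths were above both WT widths at 4, 0 and 1 of them, where 7.37% of all regions were.

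**Figure D4:**
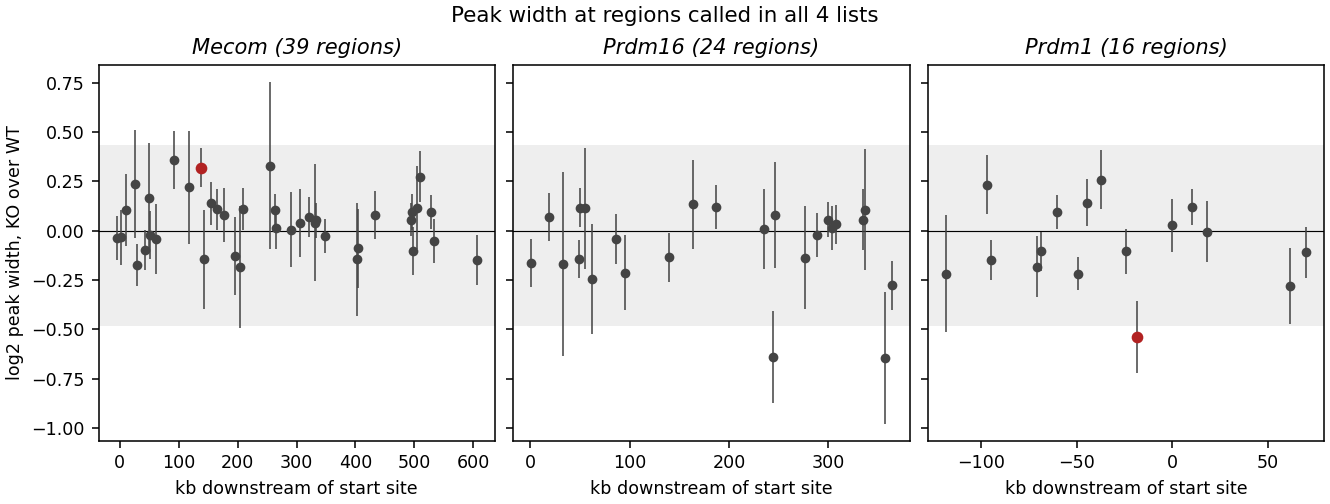
The log2 ratio of peak width, KO over WT, at each region called in all 4 lists, against its distance in kb from the start site, with standard errors from limma as bars. Grey bands hold the middle 95% of all 75395 regions, from −0.48 to 0.43, and the red points, 1 at Mecom and 1 at Prdm1, have an unadjusted p under 0.05, while no region passed after adjustment.

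The number of peaks at each locus did not separate the genotypes. Mecom had 46 and 55 peaks in the KO lists, against 49 and 47 in the WT lists, a mean of 50.5 ± 6.36 in KO and 48.0 ± 1.41 in WT (SD, 2 libraries each). Prdm16 had 25 and 42 peaks in the KO lists, against 29 and 33 in the WT lists, or 33.5 ± 12.0 in KO and 31.0 ± 2.83 in WT. Prdm1 had 18 and 20 peaks in the KO lists, against 19 and 19 in the WT lists. The KO libraries were on both sides of the WT libraries at each gene. The covered length at Mecom was 24380 and 26483 bp in the KO lists and 23738 and 26112 bp in the WT lists, at Prdm16 it was 11128 and 17881 bp in the KO lists and 14421 and 16247 bp in the WT lists, and at Prdm1 it was 9902 and 9274 bp in the KO lists and 9668 and 9954 bp in the WT lists. These ranges overlapped for all 3 genes. The median peak width at Prdm16 was 390 and 376 bp in the KO lists and 466 and 455 bp in the WT lists, with no overlap. At Mecom it was 528.5 and 426 bp in the KO lists and 457 and 496 bp in the WT lists, which overlap. At Prdm1 it was 409 and 466 bp in the KO lists and 478 and 417 bp in the WT lists, which overlap too. At the 24 Prdm16 regions in all 4 lists the medians were 393 and 527 bp in KO and 515.5 and 501 bp in WT, which overlap. How many other genes show such a gap was not counted.

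The window of 50 kb set which regions were counted at the edges. At Mecom the outermost regions inside it were 47.4 kb below and 36.9 kb above the gene span, and the next ones outside were 55.2 kb below and 82.6 kb above. At Prdm16 they were 42.7 and 37.2 kb inside and 68.9 and 112 kb outside, and at Prdm1 48.1 and 48.4 kb inside and 55.4 and 78.9 kb outside. Of the 6 regions just outside, 3 were called in all 4 lists, 2 were missing from KO replicate 1 only and 1 was called in WT replicate 2 only.

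The genes whose regions were spread over the 15 possible combinations of lists most like each member were found by the half-summed difference in shares over the 4 libraries, where 0 means equal shares. Closest to Mecom were Col25a1 at 0.0671 over 33 regions, Ptgis at 0.0829 over 35 and Atp9b at 0.0867 over 21. Closest to Prdm16 were Afap1l2 at 0.0806 over 33 regions, Kank1 at 0.102 over 34 and St6gal1 at 0.105 over 28, and 12, 11 and 11 of their regions were missing from KO replicate 1. Closest to Prdm1 were Mlxip and Mymx at 0.05 over 20 regions each and Ankrd46 at 0.0548 over 21. All 9 share the 4 libraries with the members and so their list lengths.

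The other 14 genes of the PRDM family, counting the related Zfpm1 and Zfpm2, held 187 regions, of which 119 (63.6%) were in all 4 lists. The KO pattern was found at 3 regions (1.6%) and the WT pattern at 7 (3.74%), against 1.12% and 3.04% of all merged regions. All 3 KO-pattern regions lay at Zfpm1, which encodes FOG1, a cofactor of GATA factors. They were chr8:122234171-122234449, which lay 47.4 kb outside the gene span, with 239 and 228 bp in the KO lists, chr8:122291292-122291648, with 334 and 258 bp, and chr8:122316019-122316390, with 314 and 335 bp, and each was absent from the WT lists. At Prdm12, which acts in pain-sensing neurons, 4 of 12 regions had the WT pattern, and 3 of the 12 were in all 4 lists. Their peaks in the WT lists were 201 to 428 bp wide and the KO lists had none. Prdm8 and Prdm14 had 1 WT-pattern region each, 220 to 341 bp wide in the WT lists and absent from the KO lists.

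A list of 15 genes encoding corepressors and histone-modifying enzymes that work with these 3 factors held 247 regions, 176 (71.3%) of them in all 4 lists. The KO pattern was found at 2 (0.81%) and the WT pattern at 9 (3.64%). One KO-pattern region lay 13.0 kb outside the span of Ctbp1, whose protein binds the EVI1 and PRDM16 proteins. It had 201 and 271 bp in the KO lists and no peak in the WT lists. The other lay inside the Groucho-type corepressor gene Tle3, with 201 and 375 bp in the KO lists and no peak in the WT lists. The WT-pattern regions were 2 each at the histone deacetylase gene Hdac1, the histone methyltransferase gene Ehmt1 and the histone demethylase gene Kdm1a, and 1 each at Ctbp2, Rcor1 and Tle3. Their peaks were 201 to 467 bp wide in the WT lists, with none in the KO lists. Outside the gene spans lay 1 of the regions at Hdac1 (11.2 kb away), 1 at Kdm1a (34.8 kb), and those at Rcor1 (10.3 kb) and Tle3 (2.56 kb). Both lists of genes were chosen with earlier results of these data known, and their shares are read beside those of all merged regions only.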

How the data were processed

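The authors deposited 1 ATAC-seq peak list per library, with chromosome, start, end, width and strand, per the file headers; width in bp is the only measurement, with no score, p-value or read count. Cutadapt, Bowtie2 and Picard and the build mm10 are listed, without versions, per the submitters' processing notes. The peak caller, its threshold, any shift of reads for the transposase and the depth are not given in the sources used here. A deeper library or a looser threshold gives more narrow peaks, so presence in a list depends on both. In every list some starts are 0, so starts may be counted from 0 and widths 1 bp too long. Coordinates are printed as deposited.

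Only chromosomes 1 to 19, X and Y were used (92 and 134 KO peaks and 134 and 124 WT peaks elsewhere were left out). Gene spans and promoter windows came from RefSeq GRCm38.p6, and all 3 members and 29 list genes matched by symbol. Exons and introns were not used here. The members and gene lists were chosen with earlier results of these data known. A permutation test of peak totals, foreseen in the plan, is not given for that reason. Named are the 3 genes with each genotype-patterned region, per gene the 3 widest regions in all 4 lists and the 3 with the smallest p for width, regions within 1000 bp of a gene end, list genes with a patterned region and the 3 genes most like each member. An item that this rule gave is not reported here. Widths were summed per region, log2-transformed, quantile-normalised and compared with limma (R 4.3.3, limma 3.58.1) with Benjamini-Hochberg adjustment over 75395 regions, after tests on simulated data. With 2 libraries per genotype, p-values measure only the spread between these libraries. Alternatives covered the overlap, the gap for absence, peak width, list length, the flank, normalisation, the replicate block and each library left out. Other steps used Python 3.11.15 with pandas 2.3.3, numpy 2.4.6, scipy 1.17.1 and matplotlib 3.10.9.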

Additional observations from a re-analysis of the deposited data

How the results depend on the processing

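Regions that followed genotype at the 3 genes numbered 3 for KO and 2 for WT, and the same 5 regions were called with an overlap of 50% of the narrower peak, with no peak of the other genotype within 500 bp, within the gene span alone and with 100 kb on either side. The WT pattern moved to 1 region without the peaks under their list's median width and to 1 with equal list lengths, while the KO pattern gave 2 and 3. These counts include other regions, which took on a pattern once narrow peaks were removed. Without the peaks under the median, 0 of the 3 KO-pattern and 0 of the 2 WT-pattern regions kept their pattern, which their widths had already fixed. With equal list lengths, 2 of the 3 and 0 of the 2 kept it. Leaving out 1 library in turn, and so asking for 1 list fewer, gave between 4 and 16 regions of the KO pattern and between 2 and 10 of the WT pattern. The difference in peaks per library, KO minus WT, was 5 and ran from −9 (without KO replicate 2) to 19 (without KO replicate 1), and that in covered length was −546 bp and ran from −4660 to 3568 bp. Per gene, the sign of these differences turned with the library left out. Without KO replicate 2 the difference in peaks was −2 at Mecom and −6 at Prdm16, against 2.5 at each with all libraries. The difference in covered length at Mecom was 506.5 bp, and −545 without KO replicate 2 and −680.5 without WT replicate 1, at Prdm16 it was −829.5 bp, and 2547 without KO replicate 1 and 83.5 without WT replicate 2, and at Prdm1 −223 bp, and 91 without KO replicate 2. Scaled to equal list totals, the difference in covered length was 2332 bp at Mecom, 215 bp at Prdm16 and 491 bp at Prdm1. At the 3 genes together it was then 3038 bp, against −546 bp unscaled. No region passed the adjusted threshold for width under any of the 8 alternatives. The numbers of the replicates were not shown to pair the libraries (correlation of same-numbered deviations −0.0449 over 75395 regions), and with the replicate block 0 of 79 regions passed, 3 at an unadjusted p under 0.05 against 2 without it. Such regions numbered 7 and 15 with KO replicate 1 or KO replicate 2 left out, where 10.9% and 18.4% of all 75395 regions passed, and 1 and 2 with WT replicate 1 or WT replicate 2 left out, where 2.9% and 3.37% did. Without normalisation the median of all regions was −0.05. Depth is unknown, so how many regions were missed cannot be given.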
